A study of Mus musculus with 9 samples.

Results

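Carnitine was added to palmitic acid-treated C2C12 myotubes, and the effect of that addition on all measured genes is described here. C2C12 is a mouse myoblast cell line that fuses into multinucleated myotubes when serum is lowered. The comparison uses 6 of the 9 libraries of the series: 3 from myotubes given 200 µM palmitic acid with 1000 µM carnitine, and 3 from myotubes given 200 µM palmitic acid alone. The other 3 libraries, from untreated control myotubes, are given beside them for scale. Libraries were taken by their treatment label, and all 22831 genes of the table were examined. In every group the cells were grown in 10% FBS to 90% confluence and differentiated in 2% horse serum for 5 to 7 days. The treatment length is labelled 48 with a garbled unit, so its unit is not stated. All libraries come from this single cell line, and the labels do not say whether replicates were separate cultures. P-values therefore measure the spread between these libraries, which may be technical. In bulk RNA, fewer cells of a kind and less RNA per cell cannot be told apart.

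Palmitic acid is a saturated long-chain fatty acid that muscle stores in lipid droplets or burns in mitochondria. To be burned it is joined to coenzyme A, handed to carnitine by carnitine palmitoyltransferase at the outer mitochondrial membrane, carried inside as acylcarnitine, and handed back to coenzyme A for beta-oxidation. Fatty acids also act as ligands of the PPAR nuclear receptors, which turn on genes for fatty acid uptake, storage and oxidation.

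Against palmitic acid alone, carnitine went with lower counts of Angptl4, Tmem109 and Ndrg4 and with higher counts of 54 other genes, among 5917 unopposed genes, protein-coding genes whose exons have no annotated gene on the other DNA strand. Angptl4, a secreted inhibitor of lipoprotein lipase and a PPAR target, had 155 to 178 CPM with carnitine and 276 to 381 CPM with palmitic acid alone. Among the 54 higher genes were Ppig, a peptidyl-prolyl isomerase of the splicing machinery, the autophagy enzyme Atg7 and the actin-binding signalling protein Marcks. Across all 12548 genes tested none passed. The way counts were divided between DNA strands also differed between the groups, and it is not known which strand the counts represent, which limits every gene value below.

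The strand division is given by a sense-to-opposite ratio, the summed counts of unopposed genes over the summed counts of noncoding genes that lie opposite a protein-coding gene. The ratio was 0.841, 0.660 and 0.707 in palmitic acid + carnitine replicates 1, 2 and 3, against 3.54, 1.23 and 1.23 in the palmitic acid replicates, and it was 0.691, 0.638 and 1.19 in the control replicates. Palmitic acid replicate 1 stood apart from every other library, and control replicate 3 was the highest control. Total counts were 3.09, 2.45 and 2.63 M with carnitine, against 5.14, 3.44 and 3.33 M with palmitic acid alone and 2.31, 2.73 and 3.31 M in control. The ratio averaged 0.736 ± 0.0940 with carnitine and 2.00 ± 1.34 with palmitic acid alone (SD, n = 3 each), and the total 2.72 ± 0.328 and 3.97 ± 1.01 M. For each measure the exact permutation test (two-sided) gave p = 0.1, the smallest possible with 3 against 3. The kit is stranded, per the labels, and the strand setting of the counting is not given in the sources used here. In 910 of 1102 coding-noncoding pairs on opposite strands (82.6%) the noncoding member held more counts over the 9 libraries. Gm10252 held 142406 counts and Ftl1, the ferritin light chain opposite it, 3078, and Gm11175 held 206975 and Jund, a transcription factor of the AP-1 complex, 19602. The counts may therefore have been taken on the strand opposite to each gene. In that case a value printed under a gene's name would count reads assigned to the other strand of its locus, which need not be that gene's mRNA. This could not be settled without the reads. The unopposed myotube genes Myh3 and Myog held 85751 and 5288 counts over the 9 libraries, and the source of those reads was not tested.

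**Figure D1:**
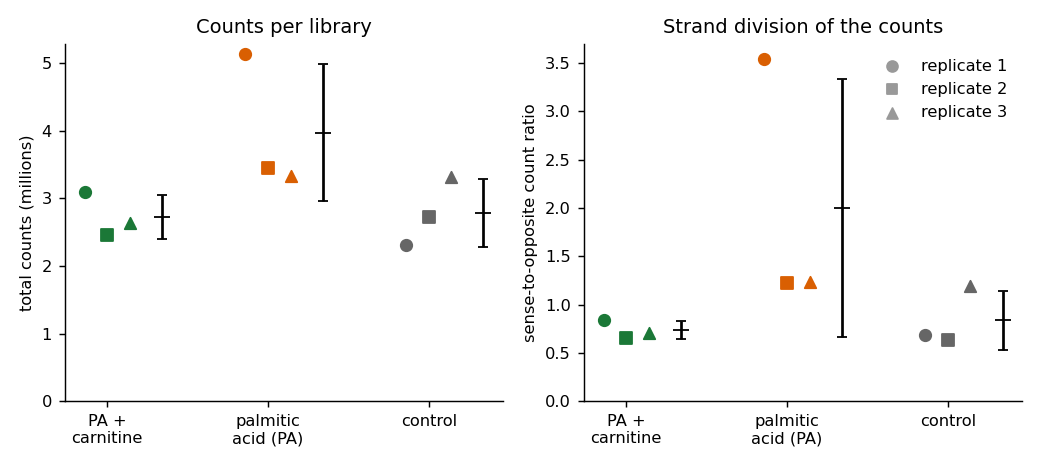
Total counts per library, in M (left), and the sense-to-opposite count ratio (right) for palmitic acid + carnitine, palmitic acid and control, one symbol per replicate with the mean ± SD as a bar. Palmitic acid replicate 1 has the largest total, 5.14 M, and a ratio of 3.54, while the 3 carnitine libraries lie between 0.660 and 0.841.

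In the test of all genes, noncoding genes opposite a protein-coding gene stood higher with carnitine: 1247 of 1269 were above 0 and the median log2 fold change was 0.91. Unopposed genes had a median of -0.34, and protein-coding genes with an opposite-strand gene 0.02, so a gene's place in the annotation went with its direction. Without palmitic acid replicate 1 the medians were 0.54, -0.27 and -0.0045. With the ratio as a covariate they were -0.10, -0.11 and -0.09. The same opposition was seen within pairs: in 91.9% of 1102 pairs the noncoding gene had the higher log2 fold change.

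**Figure D2:**
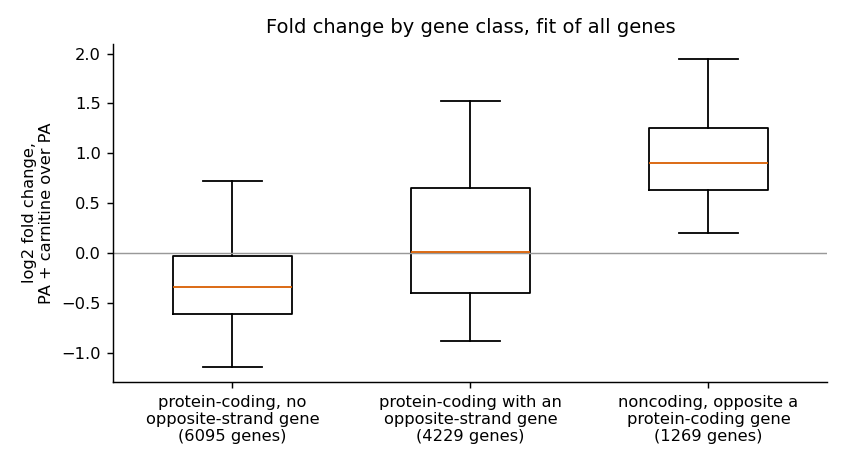
Log2 fold change, palmitic acid + carnitine over palmitic acid, by gene class in the fit of all genes; the line in each box is the median, boxes span the quartiles and whiskers the 5th to 95th percentiles. Medians are -0.34 for unopposed genes, 0.02 for protein-coding genes with an opposite-strand gene and 0.91 for noncoding genes opposite a protein-coding gene.

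Pairs with many counts show this at single genes. CPM values of single genes are per M counts of all genes, with each library's total multiplied by its TMM factor, edgeR's size correction. That factor was 1.52 in palmitic acid replicate 1 and 0.860 to 1.05 in the other libraries. Fn1, the matrix protein fibronectin, had 5847, 5043 and 5003 CPM in the carnitine libraries, against 7608, 6339 and 6427 with palmitic acid alone and 4014, 3879 and 5257 in control. Apol7d, the gene annotated opposite it, had 7933, 8675 and 7809 CPM with carnitine, against 2180, 5756 and 5788 with palmitic acid alone and 6795, 7073 and 4978 in control. In both genes the carnitine and palmitic acid libraries did not overlap, and the groups stood in opposite order. The log2 fold changes were -0.36 ± 0.29 for Fn1 and 0.83 ± 0.38 for Apol7d (± SE here and below; edgeR's quasi-likelihood test with Benjamini-Hochberg adjustment, adjusted p = 0.449 and 0.201). Thbs1, the matrix protein thrombospondin 1, and its opposite gene Gm29233 stood at -0.69 ± 0.27 and 0.80 ± 0.42. Jun, another AP-1 factor, and Junos stood at -0.29 ± 0.26 and 0.84 ± 0.40, and Ftl1 and Gm10252 at -0.39 ± 0.33 and 0.79 ± 0.39. None of these 8 genes passed. With the ratio as a covariate Apol7d came to -0.06, Gm10252 to -0.11 and Junos to -0.17.

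Over all 12548 genes edgeR called 0 genes at an adjusted p under 0.05 (0% of those tested), with a smallest adjusted p of 0.125. Unadjusted p-values were under 0.05 for 3046 genes, of which 1999 stood higher and 1047 lower with carnitine. DESeq2 gave 702 calls among the same genes, 576 higher and 126 lower. A single gene was called by limma on log2(FPKM + 1), and leaving out control replicate 3 gave edgeR 6 calls, all higher. Palmitic acid + carnitine against control also gave 0 calls, with 346 genes at an unadjusted p under 0.05, and palmitic acid against control gave 0 calls and 2453 such genes.

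The genes with the smallest p in each direction were taken after a filter. It left out predicted genes (names such as Gm or Rik), pseudogenes, genes with a mean FPKM under 1 in the higher group and genes whose groups overlapped. Noncoding genes with such names could therefore not be listed. The 6 higher ones were Ctbs, Zfp974, Gnpda2, Ncapg, Ilkap and Orc2, and each has an annotated gene on the other strand. Orc2, a subunit of the complex that marks DNA replication origins, had 22.8, 29.8 and 16.1 CPM with carnitine, against 6.45, 9.14 and 6.02 with palmitic acid alone and 17.7, 23.6 and 17.0 in control (log2 fold change 1.67 ± 0.33, adjusted p = 0.125). Among the 6 lower ones were Atp5g1, Anxa7, Atg101, Smyd1 and Igdcc4, none with an opposite-strand gene, all at an adjusted p of 0.125 by edgeR. The lower genes are not printed in full, so the classes of the directions are not compared.

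Within the 5917 unopposed genes, normalised on their own counts, 57 genes were called (0.963%): 54 higher (0.913%) and 3 lower (0.0507%) with carnitine. The median log2 fold change of all 5917 was -0.0012. CPM below are per M counts of these genes, with totals multiplied by the TMM factors of this set, which were 0.973 to 1.04. In all 57 the 3 carnitine libraries did not overlap the 3 palmitic acid libraries, as in 1120 of the 5917 (18.9%). Unadjusted p-values were under 0.05 for 443 genes higher (7.49%) and 252 lower (4.26%). Without palmitic acid replicate 1 there were 25 calls, all among the 54 higher genes, and with the ratio as a covariate there were 0 calls, with 69 genes higher and 93 lower at an unadjusted p under 0.05. Without palmitic acid + carnitine replicate 2 there was 1 call, without replicate 3 of that group 1, and without control replicate 3 there were 110, which included all 57. DESeq2 called 58, of which 33 were among the 57. In this set palmitic acid + carnitine against control gave 0 calls of 5917 and 296 genes at an unadjusted p under 0.05, by edgeR. Palmitic acid against control, which shares the palmitic acid libraries, gave 65 calls, 4 higher and 61 lower.

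**Figure D3:**
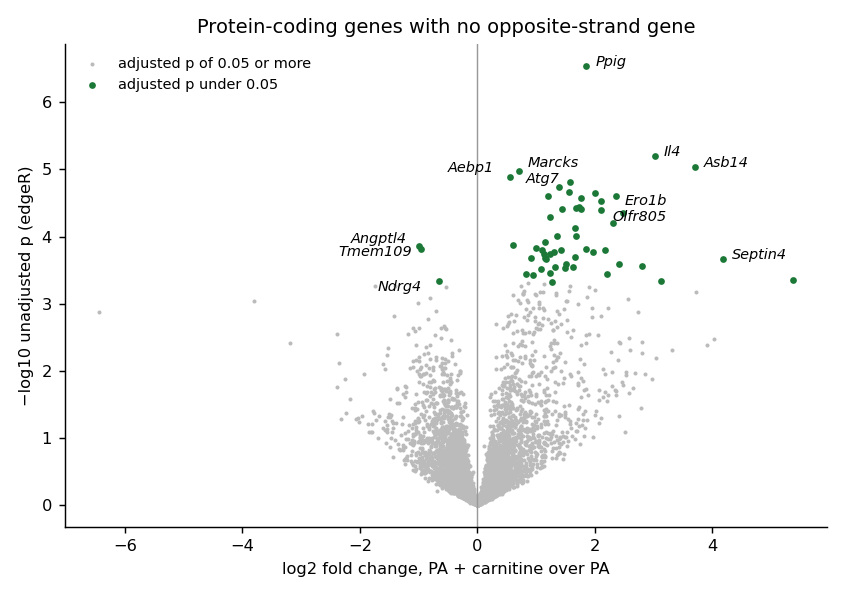
Each point is an unopposed protein-coding gene, with its log2 fold change (palmitic acid + carnitine over palmitic acid) on the x axis and -log10 of edgeR's unadjusted p on the y axis; the 57 called genes are green. Called genes lie mostly to the right, 54 against 3, and Ppig has the smallest p.

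Angptl4 (chromosome 17, 33992724 to 34000804, GRCm39 as deposited) had 178, 155 and 173 CPM in the carnitine libraries, against 349, 276 and 381 with palmitic acid alone and 80.6, 140 and 164 in control. The carnitine libraries overlapped the control range at its upper end and lay below every palmitic acid library. Its log2 fold change was -0.99 ± 0.22 (edgeR, adjusted p = 0.0287), -0.96 without palmitic acid replicate 1 and -0.77 with the ratio as a covariate. Palmitic acid against control, which shares the palmitic acid libraries, stood at 1.36 for this gene, and palmitic acid + carnitine against control at 0.37.

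Tmem109 (chromosome 19, 10848024 to 10859365), a membrane protein of the endoplasmic reticulum and nucleus, had 234, 146 and 159 CPM with carnitine, against 391, 298 and 362 with palmitic acid alone and 212, 212 and 328 in control. It fell by 0.95 ± 0.22 on the log2 scale (edgeR, adjusted p = 0.0287), and its value with the covariate was -0.53. Ndrg4 (chromosome 8, 96403608 to 96441747), a cytoplasmic protein known from heart and brain, had 521, 486 and 396 CPM with carnitine, against 806, 689 and 718 with palmitic acid alone and 700, 621 and 954 in control. Here the carnitine libraries were below all 6 others, and the log2 fold change was -0.66 ± 0.16 (edgeR, adjusted p = 0.0486) against palmitic acid and -0.70 against control. None of these 3 passed without palmitic acid replicate 1. After the naming filter above, the next lower genes were Atg101, Igdcc4 and Tnni1, each outside the call (edgeR, adjusted p = 0.052). Atg101, a subunit of the autophagy-starting ULK1 complex, stood at -1.40 ± 0.36. The membrane protein gene Igdcc4 stood at -1.75 ± 0.45 and Tnni1, the slow-muscle troponin I, at -0.54 ± 0.14.

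Among unopposed genes, PPAR target genes had the lowest median of the lists with 5 or more tested members. Of 13 tested among the unopposed genes, 1 fell (Angptl4), 0 rose and 9 were below 0, with a median log2 fold change of -0.52 beside -0.0012 for all genes of the set. The median was -0.48 without palmitic acid replicate 1 and -0.42 with the ratio as a covariate. In the test of all genes 16 of 20 targets were below 0 and none passed. Their median there was -0.42, beside -0.10 for all genes. By class it was -0.34 for unopposed genes and 0.02 for protein-coding genes with an opposite-strand gene. Several other lists stood lower in that test, such as oxidative phosphorylation subunits at -0.60, so the lowest rank holds for the unopposed set only.

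Cpt1a, the carnitine palmitoyltransferase of the outer mitochondrial membrane, and Plin2, a coat protein of lipid droplets, are shown with their promoters because PPARs bind repeats of the hexamer AGGTCA. The stretches below are RefSeq promoters on GRCm38.p6, 250 bases before to 50 after the gene's start, with each AGGTCA or its complement TGACCT in capitals. Cpt1a lies at chr19:3323051-3323350 on the plus strand and Plin2 at chr4:86670010-86670309 on the minus strand.
Cpt1a: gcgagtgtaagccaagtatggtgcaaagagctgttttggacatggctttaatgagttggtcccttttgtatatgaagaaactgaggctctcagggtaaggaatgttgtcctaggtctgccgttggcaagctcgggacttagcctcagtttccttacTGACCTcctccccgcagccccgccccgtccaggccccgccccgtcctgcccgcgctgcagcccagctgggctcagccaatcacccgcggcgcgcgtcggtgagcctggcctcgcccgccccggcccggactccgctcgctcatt
Plin2: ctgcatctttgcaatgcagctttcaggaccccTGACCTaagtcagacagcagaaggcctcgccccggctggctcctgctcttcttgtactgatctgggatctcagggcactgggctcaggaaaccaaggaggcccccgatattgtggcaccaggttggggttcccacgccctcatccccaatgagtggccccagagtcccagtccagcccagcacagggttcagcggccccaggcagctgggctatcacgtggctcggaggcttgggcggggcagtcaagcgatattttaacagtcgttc
Each holds 1 such hexamer, beginning at position -94 in Cpt1a and -218 in Plin2 relative to the start. On either strand the hexamer occurred in 16.3% of 32851 promoters of this length and in 8 of 26 promoters of the PPAR list (30.8%). A direct repeat of it with 1 base between occurred in 13 of all promoters and in 0 of the list. A match is a description of the letters and not a binding site.

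Cpt1a had 115, 54.1 and 41.2 CPM with carnitine, against 138, 126 and 185 with palmitic acid alone and 82.9, 57.5 and 91.9 in control. All 3 carnitine libraries were below all 3 palmitic acid libraries, and replicate 1 stood close to them (-1.06 ± 0.32, edgeR adjusted p = 0.101). Plin2 had 206, 194 and 284 CPM with carnitine, against 312, 330 and 339 with palmitic acid alone and 175, 240 and 265 in control (-0.52 ± 0.20, adjusted p = 0.25). Acaa2, which catalyses the last step of mitochondrial beta-oxidation, had 102, 94.6 and 62.8 CPM with carnitine, against 137, 146 and 175 with palmitic acid alone and 96.7, 82.2 and 101 in control (-0.81 ± 0.26, adjusted p = 0.132). In these 3 genes the carnitine and palmitic acid libraries did not overlap, and none passed. With the covariate they stood at -0.92, -0.50 and -0.87. Pdk4, a kinase that restrains glucose oxidation and another PPAR target, had 75.2, 54.1 and 56.9 CPM with carnitine, against 59.1, 69.0 and 66.6 with palmitic acid alone, overlapping groups (-0.05 ± 0.33). Acadm, 1 of the 4 unopposed members of the PPAR list above 0, was higher with carnitine without overlap and is given below. Ucp2, a mitochondrial carrier whose exons lie opposite Dnajb13, had 16.6, 12.3 and 19.5 CPM of all genes with carnitine, against 41.8, 34.3 and 22.6 with palmitic acid alone and 7.86, 8.14 and 12.7 in control (-1.03 ± 0.32, adjusted p = 0.13).

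**Figure D4:**
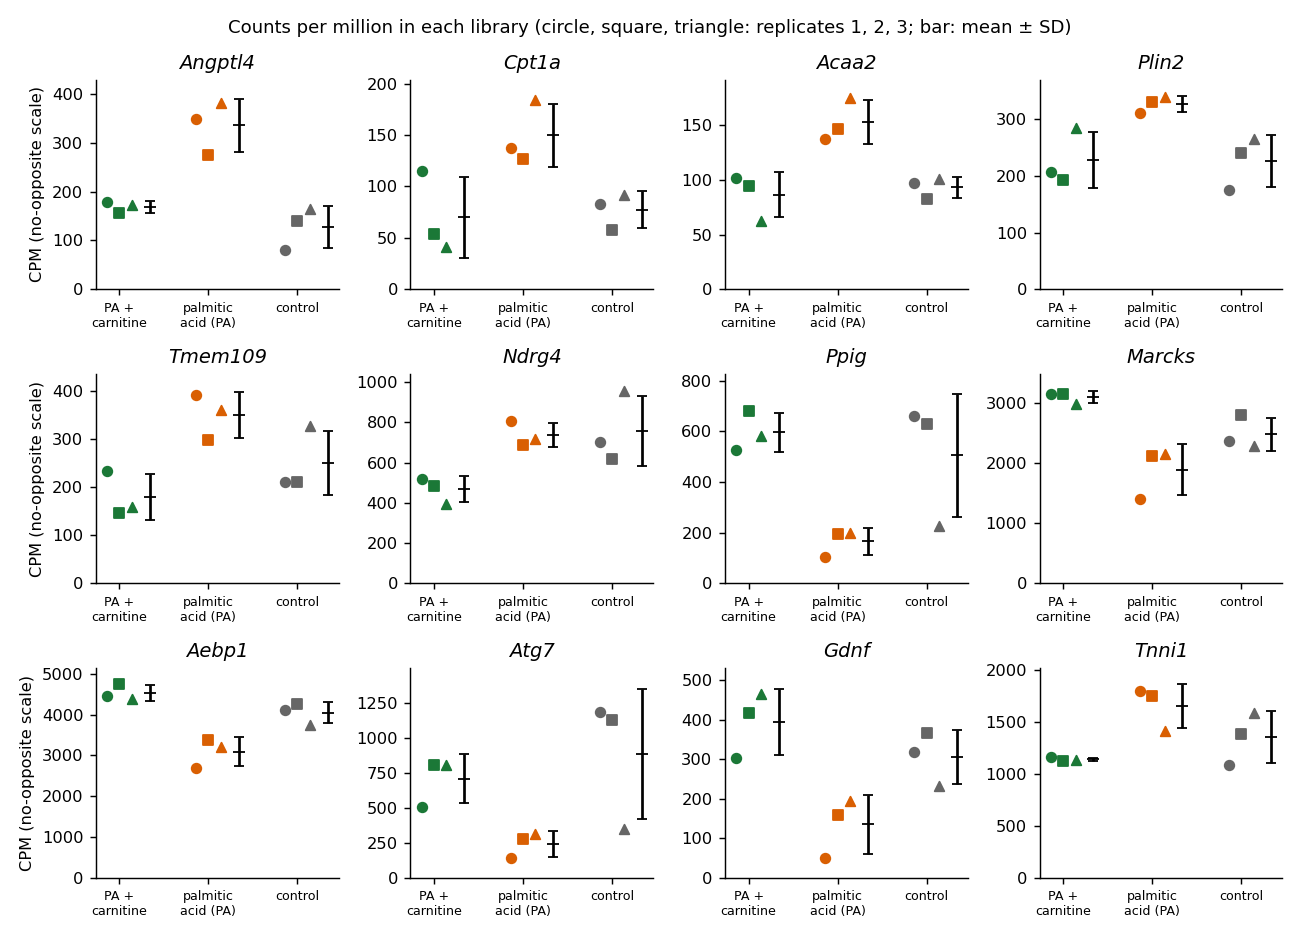
CPM per library for 12 genes in palmitic acid + carnitine, palmitic acid and control, per M counts of unopposed genes with totals multiplied by TMM factors. Circles, squares and triangles are replicates 1, 2 and 3, and bars are mean ± SD. The 3 carnitine libraries of Angptl4 lie between 155 and 178 CPM against 276 to 381 with palmitic acid alone, and in Ppig, Atg7 and Gdnf control replicate 3 is the control nearest the palmitic acid libraries.

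Genes that carry fatty acids through the carnitine shuttle had a median of -0.10 over 7 tested members, 4 below 0 and none called. The acyltransferase of the inner membrane, Cpt2, had 23.6, 11.3 and 7.85 CPM with carnitine, against 45.4, 31.3 and 13.96 with palmitic acid alone (-1.06 ± 0.60). The carnitine-acylcarnitine carrier Slc25a20 had 36.9, 31.5 and 19.6 CPM against 45.0, 38.7 and 44.0 (-0.53 ± 0.42). Cpt2 groups overlapped and Slc25a20 groups did not. Slc22a4, a plasma membrane transporter of ergothioneine and carnitine, was on the other side, with 64.9, 76.6 and 64.7 CPM with carnitine, against 24.8, 58.5 and 32.2 with palmitic acid alone and 101, 47.3 and 67.8 in control (0.86 ± 0.37, edgeR adjusted p = 0.336). It was 0.59 without palmitic acid replicate 1. The list's median was -0.31 without that library and -0.46 with the covariate.

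Mitochondrial beta-oxidation genes were mixed, with 7 of 13 below 0, none called and a median of -0.13 that turned to 0.06 without palmitic acid replicate 1. Acads, the short-chain acyl-CoA dehydrogenase, had 164, 187 and 153 CPM with carnitine, against 228, 259 and 216 with palmitic acid alone and 161, 195 and 183 in control (-0.48 ± 0.20, adjusted p = 0.303). Acadm, the medium-chain enzyme, had 136, 151 and 147 CPM with carnitine, against 109, 116 and 119 with palmitic acid alone and 104, 78.1 and 98.4 in control (0.33 ± 0.24). The groups did not overlap in either gene, and the 2 enzymes of the same step stood on opposite sides. Genes of fatty acid synthesis and desaturation had a median of -0.09, with the desaturases Scd1 and Scd2 at -0.19 ± 0.13 and -0.13 ± 0.13.

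Subunits of oxidative phosphorylation had a median of -0.29, with 35 of 53 below 0 and none called. At an unadjusted p under 0.05, 9 of 53 were lower and 0 higher, beside 4.26% and 7.49% of all genes of the set. Atp5g1, the membrane-ring subunit c of ATP synthase, had 53.1, 85.6 and 74.5 CPM with carnitine, against 153, 142 and 127 with palmitic acid alone and 85.2, 71.9 and 87.5 in control (-1.003 ± 0.27, adjusted p = 0.064). All 3 carnitine libraries were below all 3 palmitic acid libraries. Uqcrfs1, the Rieske iron-sulfur protein of complex III, and Cox7c of complex IV stood at -0.75 ± 0.27 and -0.80 ± 0.32, and were picked after their values were seen. Atp5b, the catalytic beta subunit, stood at -0.29 ± 0.13 and at -0.02 with the covariate. The list's median was -0.13 without palmitic acid replicate 1 and -0.02 with the covariate. Tricarboxylic acid cycle genes had a median of -0.09 with 15 of 23 below 0, and glycolysis genes -0.13 with 8 of 12 below 0, none called.

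Lipid synthesis lists stood on both sides of 0. Ceramide and sphingolipid genes had 11 of 14 below 0 and a median of -0.33 (-0.30 without palmitic acid replicate 1, -0.14 with the covariate), among them Degs1, the desaturase that makes ceramide, at -0.70 ± 0.36. Cholesterol synthesis and uptake genes had 10 of 18 above 0 and a median of 0.23, which was 0.08 without that library. Acat2, the cytosolic thiolase that starts the pathway, had 122, 128 and 157 CPM with carnitine, against 53.5, 80.5 and 73.0 with palmitic acid alone and 140, 158 and 121 in control (0.99 ± 0.26, adjusted p = 0.0556). Sqle, squalene epoxidase, stood at 0.82 ± 0.27. Degs1, Acat2 and Sqle were picked after their values were seen, and none of the 32 genes of both lists was called.

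**Figure D5:**
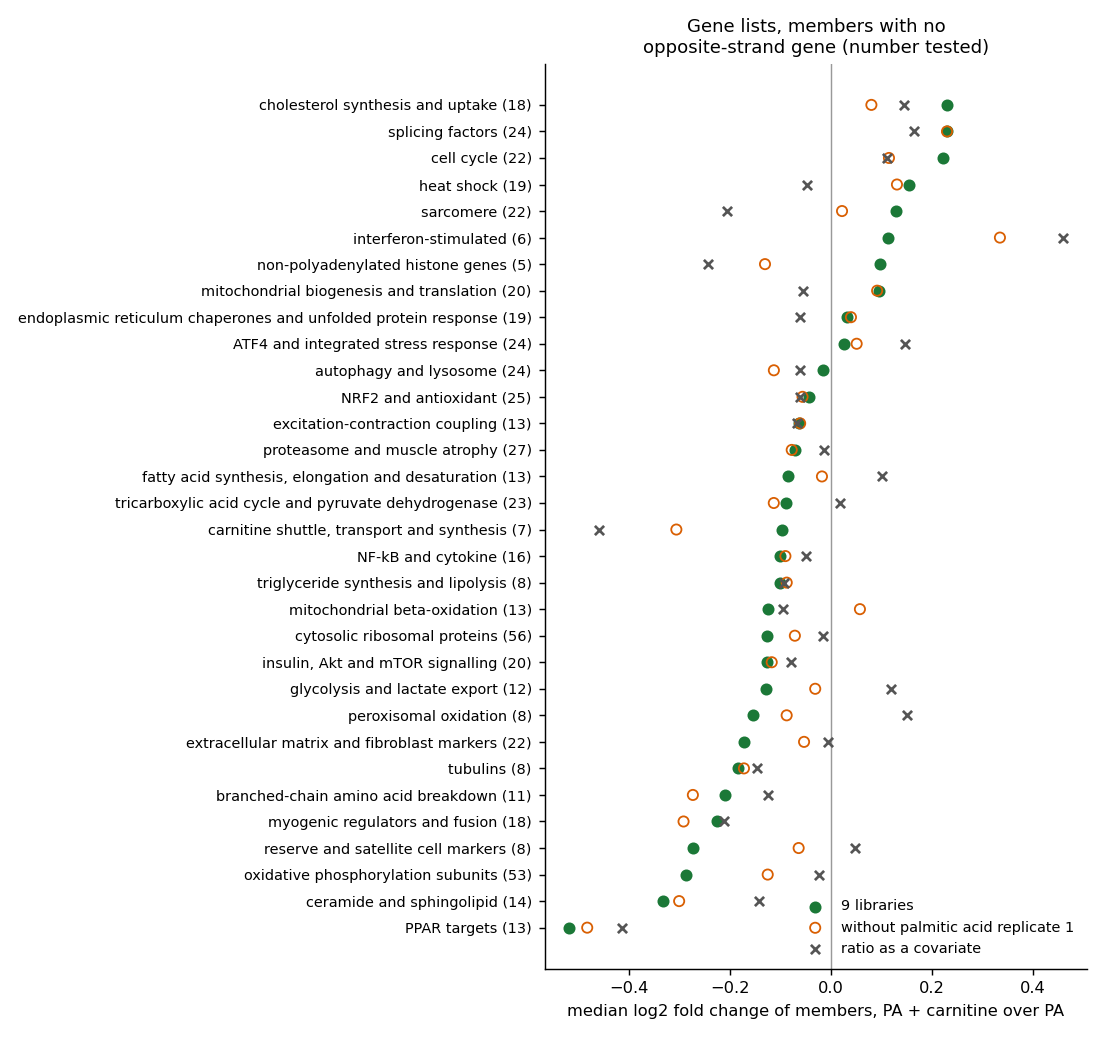
Median log2 fold change, palmitic acid + carnitine over palmitic acid, of each gene list among unopposed genes, for lists with 5 or more tested members (number in parentheses); filled circles use 9 libraries, open circles leave out palmitic acid replicate 1, crosses add the sense-to-opposite ratio as a covariate. PPAR targets have the lowest median under 9 libraries, -0.52, with -0.48 and -0.42 in the other fits, whereas heat shock and sarcomere genes, among others, change side with the covariate.

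Among the 54 higher genes, genes of RNA processing included Ppig and Prpf38b. Ppig (chromosome 2, 69552889 to 69584356) had 526, 680 and 581 CPM with carnitine, against 105, 196 and 198 with palmitic acid alone and 661, 629 and 226 in control. It had the smallest p of all, with a log2 fold change of 1.86 ± 0.27 (edgeR, adjusted p = 0.00169), and it still passed without palmitic acid replicate 1 (1.59, adjusted p = 0.0013). With the covariate it stood at 0.80 and did not pass. Gm13622 overlaps it in the table's positions. Prpf38b, a splicing factor of the PRP38 family, had 869, 1227 and 943 CPM with carnitine, against 211, 519 and 443 with palmitic acid alone and 1393, 1387 and 551 in control (1.38 ± 0.27, adjusted p = 0.0131).

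Of 24 splicing factors tested, 1 rose (Ppig), 0 fell and 16 were above 0, with a median of 0.23, the same value without palmitic acid replicate 1, and 0.16 with the covariate. At an unadjusted p under 0.05, 7 of 24 were higher and 0 lower, beside 7.49% and 4.26% of all genes of the set. Luc7l3, Pnisr and Rbm39, nuclear proteins rich in arginine and serine that were picked after their values were seen, stood at 1.10 ± 0.32, 0.86 ± 0.23 and 0.80 ± 0.23, and Srsf7, a splicing regulator of the same kind, at -0.51 ± 0.49. In the test of all genes the list's median was -0.09.

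Marcks and Aebp1 had the smallest errors of the higher genes. Marcks (chromosome 10, 37009371 to 37014916), a substrate of protein kinase C at the plasma membrane, had 3159, 3164 and 2989 CPM with carnitine, against 1415, 2123 and 2156 with palmitic acid alone and 2377, 2803 and 2287 in control. The carnitine libraries were above all 6 others. The log2 fold change was 0.71 ± 0.13 (edgeR, adjusted p = 0.0131), 0.54 without palmitic acid replicate 1 (adjusted p = 0.01) and 0.31 with the covariate. Aebp1 (chromosome 11, 5811947 to 5822088), a secreted collagen-binding protein, had 4449, 4746 and 4389 CPM with carnitine, against 2689, 3388 and 3207 with palmitic acid alone and 4116, 4262 and 3758 in control. It rose by 0.55 ± 0.10 (edgeR, adjusted p = 0.0131), but limma on log2(FPKM + 1), where all 5917 genes had a median of -0.55, placed it at -0.18.

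Other called genes with a known role were secreted factors, enzymes and regulators. Atg7 (chromosome 6, 114620058 to 114837575), the E1-like enzyme that starts the conjugation of autophagosome proteins, had 509, 809 and 808 CPM with carnitine, against 138, 277 and 313 with palmitic acid alone and 1182, 1128 and 348 in control (1.56 ± 0.30, edgeR adjusted p = 0.0131). It was 1.26 without palmitic acid replicate 1 (adjusted p = 0.0164) and 0.29 with the covariate. Gdnf, a neurotrophic factor that muscle makes for motor neurons, had 302, 417 and 467 CPM with carnitine, against 50.5, 159 and 195 with palmitic acid alone and 318, 368 and 233 in control (1.59 ± 0.30, adjusted p = 0.0131). Ero1b, an oxidase that forms disulfide bonds in the endoplasmic reticulum, had 118, 291 and 294 CPM with carnitine, against 18.8, 63.7 and 60.1 with palmitic acid alone and 230, 353 and 52.5 in control (2.36 ± 0.46, adjusted p = 0.0131). In all 3 genes palmitic acid replicate 1 was the lowest library, and in Atg7 and Ero1b control replicate 3 lay near the palmitic acid group. Abi2, an actin regulator of the WAVE complex, and Asb14, an ankyrin-repeat protein, rose by 2.01 ± 0.39 and 3.71 ± 0.68.

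Some called genes are known mainly from cells other than muscle. Il4, an interleukin of immune cells that also recruits myoblasts in muscle growth, had 92.9, 255 and 222 CPM with carnitine, against 7.71, 24.0 and 44.0 with palmitic acid alone and 226, 327 and 40.5 in control (3.02 ± 0.54, adjusted p = 0.0131). With the covariate it stood at 0.53, and its annotated end lies 1015 bp from the end of Kif3a, a gene of the other strand. Olfr805, an olfactory receptor gene picked after its values were seen, had 1283, 2730 and 2238 CPM with carnitine, against 125, 651 and 684 with palmitic acid alone and 3107, 3058 and 620 in control (2.11 ± 0.43, adjusted p = 0.0132; 0.02 with the covariate). Tek, an endothelial receptor and the sole endothelial marker of its list that was tested, had 11.8, 18.0 and 60.8 CPM with carnitine, against 2.14, 2.09 and 6.44 with palmitic acid alone and 59.9, 67.8 and 13.1 in control (3.12 ± 0.78, adjusted p = 0.0486). The defining endothelial marker Cdh5 had 0, 2 and 0 counts in the carnitine libraries and 2, 0 and 0 in the palmitic acid libraries. Kdr, another endothelial receptor, had 0, 0 and 4 counts with carnitine and 0 in each palmitic acid and control library. The 4 fell in carnitine replicate 3, where Tek was highest of its group. Control replicates 1 and 2, with Tek at 59.9 and 67.8 CPM, had 0 counts of Kdr and 1 and 0 of Cdh5.

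The 54 higher genes ranged in log2 fold change between 0.55 (Aebp1) and 5.37 (Olfr1366), with a median of 1.57. Olfr1366, picked after its values were seen, had 16.2, 13.5 and 19.6 CPM with carnitine and 0, 1.04 and 0 with palmitic acid alone, so its fold rests on almost no counts with palmitic acid alone. Palmitic acid replicate 1, the library with the highest ratio, was the lowest of its group in 47 of the 54. Palmitic acid + carnitine replicate 1, the highest in ratio of its group, was lowest in 45, and control replicate 3 was lowest of the controls in 53. With the ratio as a covariate 48 of the 54 remained above 0 and all 3 lower genes remained below 0, with medians of 0.37 and -0.53 and none past the threshold. The ratio itself differed between the groups, so the covariate and the treatment cannot be told apart.

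The called genes also differed from the set in their neighbours. In the table's GRCm39 positions, 4 of the 54 higher genes overlap a gene of the other strand, and 28 of those that do not end within 5000 bp of the end of a gene running toward them on that strand, 32 in all (59.3%). Among all 5917 genes the same held for 1991 (33.6%). Atg7 ends 14 bp from Vgll4, Star, the steroidogenic cholesterol transporter, 14 bp from Ash2l, and Aebp1 92 bp from Pold2. Of the 3 lower genes only Ndrg4 has such a neighbour, Cnot1, at 4332 bp. These are counts without a test, and the part of neighbours in the fold changes was not tested.

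Myogenic regulators and fusion genes had 15 of 18 below 0 and a median of -0.23. Mymk, the fusion protein myomaker, had 414, 399 and 394 CPM with carnitine, against 711, 478 and 592 with palmitic acid alone and 412, 366 and 449 in control (-0.56 ± 0.17, adjusted p = 0.0948). Smyd1, a methyltransferase of sarcomere assembly, stood at -0.98 ± 0.29, and the differentiation factors Myog and Myod1 at -0.23 ± 0.14 and 0.03 ± 0.19. The list's median was -0.29 without palmitic acid replicate 1 and -0.21 with the covariate.

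Sarcomere genes were mixed, with 13 of 22 above 0, none called, and a median of 0.13 that was 0.02 without palmitic acid replicate 1 and -0.21 with the covariate. Tnni1 had 1158, 1122 and 1136 CPM with carnitine, against 1794, 1752 and 1411 with palmitic acid alone and 1085, 1387 and 1587 in control, with no overlap between the carnitine and palmitic acid libraries. Tpm2, the beta-tropomyosin, had 11256, 12680 and 11899 CPM with carnitine, against 7176, 10546 and 10989 with palmitic acid alone (0.32 ± 0.11; 0.15 without palmitic acid replicate 1 and -0.06 with the covariate). Mylpf, the fast regulatory light chain, had 3937, 3847 and 4007 CPM with carnitine, against 4873, 4435 and 4316 with palmitic acid alone (-0.21 ± 0.09). Myh3, the embryonic myosin heavy chain, stood at 0.22 ± 0.12 and at 0.03 without palmitic acid replicate 1. Tubulin genes had 7 of 8 below 0 (median -0.18), with Tubb6, an isotype of differentiating muscle, at -0.38 ± 0.13.

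Myotube markers had counts in every library. Unlike the CPM of single genes, marker sums here are per M of each library's raw count total, without TMM factors. The summed CPM of all genes over 8 myotube markers (Myh3, Myh1, Acta1, Ckm, Tnnt3, Myog, Des and Ttn) was 9801 to 11682 with carnitine, 15135 to 21646 with palmitic acid alone and 8882 to 13967 in control, so the first 2 groups did not overlap. All of this list but Myh3 and Myog have opposite-strand genes. The share of unopposed genes in the raw totals differed too, at 18.8 to 22.5% with carnitine and 28.2 to 44.0% with palmitic acid alone. Among unopposed genes, Myh3 and Myog stood on opposite sides of 0, as given above. The gap in the myotube sum is therefore not read as a difference in myotubes. The 4 reserve-cell markers summed to 13.3 to 16.7 CPM with carnitine and 18.6 to 37.8 with palmitic acid alone, and 3 fibroblast markers to 23.6 to 25.3 and 30.1 to 33.1. The gaps between the groups in reserve-cell and fibroblast markers depend on that raw scale and are not read as a difference. Neuron, Schwann, adipocyte and endothelial markers summed to at most 5.70 CPM in any of these libraries. Osteoblast markers, nearly all of them Runx2 counts, summed to 64.1 to 89.8 CPM with carnitine and 86.0 to 89.4 with palmitic acid alone. Macrophage markers summed to 235 to 248 CPM with carnitine, 95.6 to 209 with palmitic acid alone and 200.1 to 272 in control, so the carnitine and palmitic acid libraries did not overlap. Nearly all of these were counts of Csf1r, a receptor gene with an opposite-strand gene (log2 fold change 0.92, 0.56 without palmitic acid replicate 1, not called), while Lyz2 had 0, 0 and 0 counts with carnitine against 4, 4 and 0 with palmitic acid alone. Pecam1, Ptprc, Adipoq, Fabp4, Plin1, Bglap and Lum matched no gene of the deposited table by symbol. The adipocyte sum therefore rests on 1 of 4 markers and the endothelial sum on 2 of 3. The part of cell makeup in the results was not tested.

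Stress and turnover lists held few calls. Endoplasmic reticulum chaperones and unfolded protein response genes had a median of 0.03 over 19 members, with Ero1b called and Hspa5, the main chaperone of that compartment, at 0.14 ± 0.14. Autophagy and lysosome genes had a median of -0.02 over 24, with Atg7 called and Atg101 just outside the call in the other direction. ATF4 and integrated stress response genes had a median of 0.03 over 24, none called; Atf4 itself stood at 0.05 ± 0.17. Slc7a11, a cystine importer of that list picked after its values were seen, had 1820, 1905 and 1959 CPM with carnitine, against 519, 1253 and 1347 with palmitic acid alone and 1960, 2135 and 1206 in control (0.87 ± 0.22, adjusted p = 0.0509; -0.09 with the covariate). NRF2 and antioxidant genes had a median of -0.04 over 25. Gpx1 and Sod2, enzymes that remove peroxide and superoxide, stood at -0.87 ± 0.28 and -0.61 ± 0.21, picked after their values were seen and not called.

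Heat shock genes had 16 of 19 above 0 and a median of 0.15, which turned to -0.05 with the covariate. Hsp90ab1, the constitutive cytosolic chaperone, had 6841, 6701 and 6760 CPM with carnitine, against 5069, 6017 and 6326 with palmitic acid alone (0.22 ± 0.09, adjusted p = 0.31). Proteasome and atrophy genes (median -0.07, 19 of 27 below 0), cytosolic ribosomal proteins (-0.13, 36 of 56 below 0), insulin and mTOR signalling genes (-0.13, 13 of 20 below 0) and matrix genes (-0.17, 14 of 22 below 0) had no call. At edgeR's unadjusted p under 0.05, 14 of 56 ribosomal protein genes were lower and 1 higher, beside 4.26% and 7.49% of all genes of the set. Their median was -0.07 without palmitic acid replicate 1 and -0.02 with the covariate. Cell cycle genes had 13 of 22 above 0 (median 0.22, none called). The 10 lists of 5 or more tested members with a median above 0 in this set, cholesterol, splicing, cell cycle, heat shock, sarcomere and stress lists among them, all had a median below 0 in the test of all genes, where unopposed genes were lower as a class.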

How the data were processed

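Stranded mRNA libraries of C2C12 myotubes were grouped by treatment label, 3 a group, with replicate numbers from the titles. The deposited table holds raw whole-number counts per gene, made by the authors, and FPKM values that the authors derived from gene length and each library's count total, per the file headers; counts, totals and FPKM imply the same gene length in every library (largest relative spread 2.98e-14). Per the submitters' processing notes the tools were HTSeq 0.13.5, HISAT2 2.2.0, Bowtie2 2.4.2, Trim Galore 0.6.4 and edgeR, and the listed builds were GRCm39, GRCh38 and Rnor_6.0. The strand setting and the handling of multi-mapping reads are not given in the sources used here, so genes with an opposite-strand or near-identical partner are uncertain, and the counts may represent the strand opposite to each gene. Of 22831 genes, 174 have no symbol and 0 are mitochondrial; 0 per-sample columns were left unmapped. Depth was 2.31 to 5.14 M counts a library.

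Strand relations came from GENCODE M21 (GRCm38), joined by gene ID for 22506 genes, which gave 9523 unopposed genes, protein-coding genes whose exons face no annotated gene. Counts were tested with edgeR 4.0.16 in R 4.3.3 (TMM, filterByExpr with a minimum count of 10 and total of 15, quasi-likelihood F-test, 6 residual degrees of freedom before moderation) in 1 fit of 9 libraries with group as the factor, for all genes and again for the unopposed genes alone. Calls are at a Benjamini-Hochberg adjusted p under 0.05. SE is the log2 fold change over the square root of F. Alternatives were DESeq2 1.42.0, limma 3.58.1 on log2(FPKM + 1), other size factors, no filter, a replicate block, the ratio as a covariate and leaving out each library. The edgeR step was tested on simulated data.

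The members and all 37 gene lists (1069 symbols, 1018 matched, 900 tested) were chosen with earlier results of these data known. Named genes are up to 12 called genes each way over all genes and up to 10 among unopposed genes, or the 6 with the smallest p where fewer are called, the 4 most abundant and every called member of a list, 40 genes named in advance (4 untested: Slc22a5, Il6, Slc2a4 and Ppargc1a), and the 6 pairs with most counts; not all are printed, and some are not reported here. Genes outside this rule are said to be picked after their values were seen.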

Additional observations from a re-analysis of the deposited data

How the results depend on the processing

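For all genes, where edgeR called 0, DESeq2 called 702, edgeR without the filter on low counts 1366 (1218 higher, 148 lower), and limma on log2(FPKM + 0.1), log2(FPKM + 1) and log2(FPKM + 1) without a filter 3, 1 and 4; leaving out 1 library gave 0 to 6. Within unopposed genes, where edgeR called 57, the 3 limma fits called 0, 0 and 3, edgeR without a filter 167, with only the 6 libraries of both groups 87, and with the ratio as a covariate 0; leaving out 1 library gave 1 to 110. DESeq2 called 58 there, 49 higher and 9 lower, against 54 and 3 by edgeR. With replicate numbers as a block edgeR called 0 of all genes and 80 in the set, 54 of them among the 57, and Ndrg4, Tek and Reep1 (2.11, picked after its values were seen) no longer passed. Same-numbered carnitine and palmitic acid libraries deviated together with correlations of 0.26, 0.10 and 0.06, and 1 of 9 libraries correlated best with its own number, so the numbers were not taken as pairs. Aebp1 (-0.18) and Rrbp1 (-0.11) reversed in the limma fits, on a scale where the median of all genes in the set was -0.55 at log2(FPKM + 1). With the ratio as a covariate 6 of the 54 higher genes reversed, among them Ubxn8 (-0.089), Hhatl (-0.062), Gm8369 (-0.41), Ttl (-0.022) and Susd5 (-0.20); the cause was not tested. Upper-quartile factors gave a median of -0.21 over all genes, against -0.10 with TMM. Leaving out 1 library moved the difference in mean totals between -1.57 and -0.66 M and in the mean ratio between -1.65 and -0.49, keeping its sign. Genes with few counts, such as Olfr1366, have folds that depth limits.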

Other observations

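Further genes called higher with carnitine among unopposed genes, all picked after their values were seen, fall outside the lists above. Rrbp1, a ribosome-binding protein of the endoplasmic reticulum, averaged 3675 ± 195 CPM with carnitine and 2421 ± 513 with palmitic acid alone (SD, n = 3 each; log2 fold change 0.60 ± 0.14), though limma on log2(FPKM + 1) placed it at -0.11. Unc45a, a myosin chaperone, rose by 1.00 ± 0.23, Nexn, an actin-binding protein of the Z-disc, by 0.96 ± 0.24, Hoxc9, a homeobox factor of body position, by 1.16 ± 0.26, and Nolc1, a nucleolar phosphoprotein, by 0.92 ± 0.22. With the ratio as a covariate these 5 stood at 0.10, 0.09, 0.45, 0.28 and 0.20, and none passed. Emc2, a subunit of the membrane protein insertion complex, was 1.10 ± 0.25 and kept 1.04 with the covariate, and Septin4, a filament-forming GTPase with 10.3, 49.5 and 19.6 CPM with carnitine against 2.14, 0 and 1.07 with palmitic acid alone, was 4.19 ± 0.98 and 4.17 with it. Neither passed with the covariate. Septin4 held only 76 counts over the 9 libraries, so its fold rests on few counts.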
